A study of Mus musculus with 2 samples.

Results

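The genes described here are 10 parts of the bone morphogenetic protein (BMP) pathway and of its Id targets: the ligand genes Bmp2, Bmp4 and Bmp7, the receptor genes Bmpr1a and Bmpr2, the inhibitory Smad genes Smad6 and Smad7, and the Id genes Id1, Id2 and Id3. They were chosen by symbol from 18193 genes of the array, with earlier results of these data known. The platform annotation assigns them 22 of the 45037 probe sets. The series compared cells of lung tumours with the colorectal carcinoma line that gave rise to them. Lung-recovered CMT-93-PM1 cells (1 array) came from tumours found 8 weeks after CMT-93 cells had been given by tail vein to female C57BL/6 mice aged 6 weeks, and were grown as a primary culture. Parental CMT-93 (1 array) is a mouse rectal carcinoma cell line, labelled as the normal CMT-93 cell. Both cultures were kept in medium with 10% fetal bovine serum, and no genetic change or drug was given to either. How many mice or tumours contributed to CMT-93-PM1 and whether host cells remained in it is stated nowhere in the labels.

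BMPs are secreted dimers that bring together type I and type II serine/threonine kinase receptors, whose type I partner phosphorylates Smad1, Smad5 and Smad9. With Smad4 these enter the nucleus and raise the transcription of target genes, of which the Id genes are the best known. Id proteins are helix-loop-helix proteins without a DNA-binding region, and they hold E proteins away from DNA, while Smad6 and Smad7 are induced by the signal and damp it. In the intestine BMP signalling favours differentiation of the epithelium and restrains its stem cells, and extracellular antagonists such as noggin and gremlin shield the crypt base.

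Signals were deposited on a log2 scale. Each array was given a floor at its 40th percentile, 4.59 log2 on the lung-recovered and 4.69 on the parental array, and a probe set at the floor on both arrays is called not measured. Every ratio is lung-recovered minus parental on the log2 scale, and a gene is represented by its brightest probe set. With 1 array per group no difference has a replicate check, a standard error or a test, and differences between the lines cannot be told apart from those between the 2 cultures, labellings or hybridizations. The only spread in the data is that between probe sets of a gene on the same 2 arrays. It holds no variation between cultures, labellings or hybridizations. Over 5782 genes with several probe sets above both floors, the median SD of the ratio between probe sets of a gene was 0.17 and the 90th percentile 0.49. The median ratio of the 13332 measured genes was 0.

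Of the 10 genes, Id1 and Id3 were lower in the lung-recovered cells by more than 2-fold, none was higher by that much, and 5 of the 8 measured genes lay within 1.5-fold, where 11.5% of all measured genes were further up and 6.95% further down. Bmp2 and Bmp4 were not measured. The background was 340 of 13332 measured genes that were 2-fold or more lower (2.55%) and 589 that were 2-fold or more higher (4.42%), against 2 of 8 and 0 of 8 among the BMP and Id genes. These genes and the wider lists below were chosen with earlier results of these data known. Shares set beside the background are therefore description and not a test. The median ratio of the 8 genes was -0.03, with 4 ratios above 0 and 4 below. In RNA of a whole culture, fewer cells that express a gene and less of its RNA per cell cannot be told apart. Of the 22 probe sets 16 were above the floor on both arrays, 6 were at the floor on both, and 5 of the 10 genes, Id1 and Id3 among them, are represented by a single probe set.

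**Figure D1:**
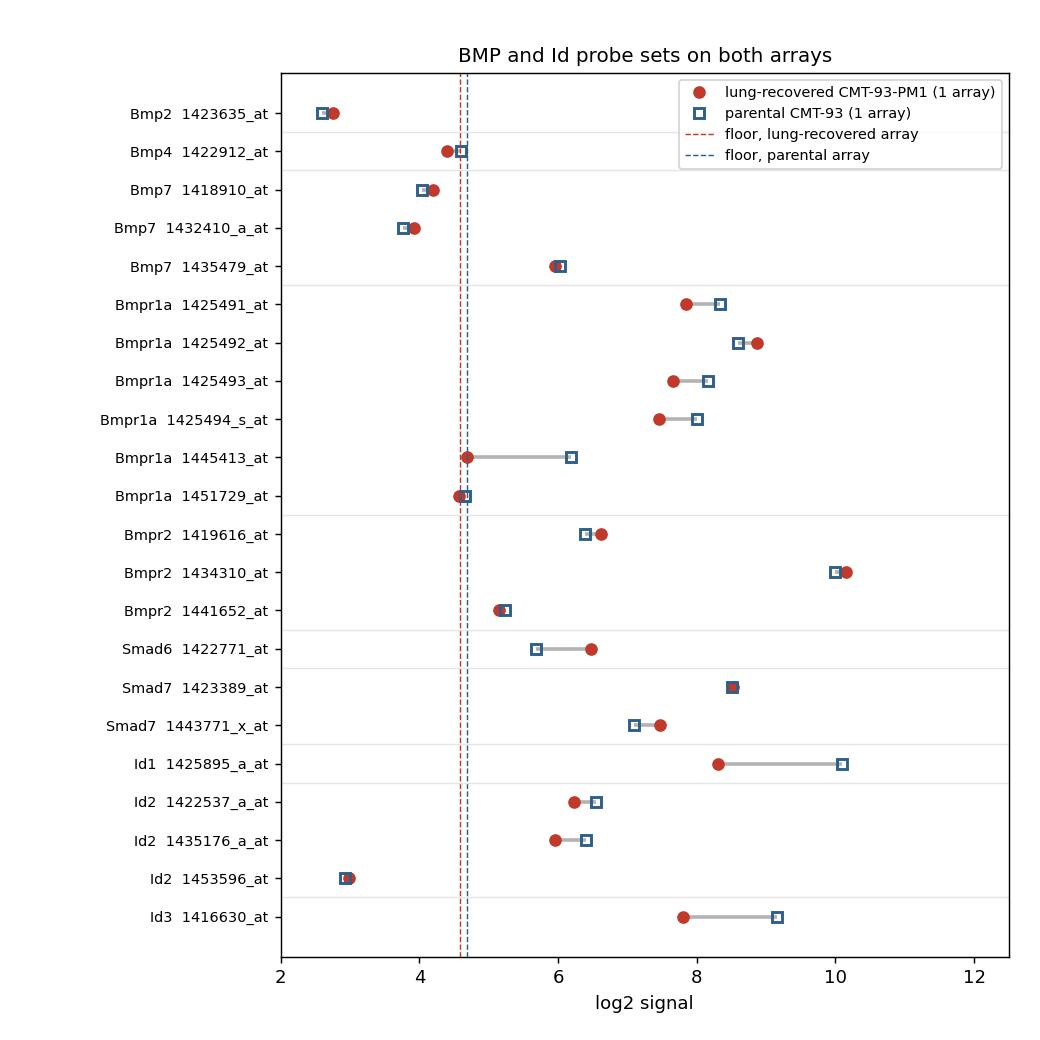
Log2 signal (x axis) of every probe set of the 10 genes (rows) on the lung-recovered array (filled circles) and the parental array (open squares), with each array's floor as a dashed line. The single probe sets of Id1 and Id3 lie furthest left of their parental squares among the genes with 1 probe set, and those of Bmp2 and Bmp4 lie under the floor.

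Id1, whose protein sequesters E proteins and is a standard readout of BMP and Smad1 activity, read 8.30 log2 on the lung-recovered array and 10.10 on the parental array. The difference was -1.80, or 3.48-fold lower in the lung-recovered cells. Of all 13332 measured genes, 101 had a lower ratio (0.758%). Among the 1332 genes in the same of 10 equal bins of mean signal, the ratio had an SD of 0.58 across genes and 37 genes (2.78%) were 2-fold or more lower.

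Id3, a close relative that is often induced together with Id1, read 7.80 log2 on the lung-recovered and 9.16 on the parental array. It was 2.57-fold lower in the lung-recovered cells, a ratio of -1.36, and 181 measured genes (1.36%) had a lower ratio. In its signal bin of 1328 genes the SD was 0.52, and 19 genes (1.43%) were 2-fold or more lower. Signal stayed well above the floor on both arrays for Id1 and Id3, so both differences are measured on both sides and neither is a bound.

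Id2, which in many cells follows other signals beside BMP, differed less. One probe set (1422537_a_at) read 6.23 log2 on the lung-recovered and 6.55 on the parental array, and another (1435176_a_at) read 5.96 and 6.40 on the same arrays. The ratios of -0.32 and -0.44 had the same sign as those of Id1 and Id3 and stayed within 1.5-fold. The remaining Id2 probe set (1453596_at) was at the floor at 2.99 and 2.93. Id4, the fourth member of the family, was at the floor on both arrays by all of its probe sets, the brightest at 3.71 log2 in lung-recovered and 3.88 in parental cells.

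The sequences just before the start of Id3 and Id2 are shown because these genes lie on the same side of 0 by different amounts. They are RefSeq sequences of GRCm38.p6, 250 bases ending at the base before the gene's start, read 5′ to 3′ along the gene. Capitals mark matches to GGCGCC, the GC-rich sequence bound by BMP-activated Smads, and to GTCTG or its reverse complement CAGAC, the sequence bound by Smad4. The first window is chr4:136143572-136143821 on the plus strand and the second is chr12:25096093-25096342 on the minus strand.
Id3: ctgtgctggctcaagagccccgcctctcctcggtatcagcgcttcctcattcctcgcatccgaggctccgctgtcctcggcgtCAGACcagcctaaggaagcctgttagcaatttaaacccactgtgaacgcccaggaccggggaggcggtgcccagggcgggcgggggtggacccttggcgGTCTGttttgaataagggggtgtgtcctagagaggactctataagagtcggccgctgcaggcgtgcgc
Id2: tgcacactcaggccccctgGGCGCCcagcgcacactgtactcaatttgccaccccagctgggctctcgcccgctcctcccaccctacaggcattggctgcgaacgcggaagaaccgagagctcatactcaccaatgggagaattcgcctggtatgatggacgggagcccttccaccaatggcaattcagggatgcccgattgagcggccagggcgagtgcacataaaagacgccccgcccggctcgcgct
Both windows were 62.8% G or C, against a median of 52.4% over 32851 promoter entries. The Id3 window held GTCTG at 2 places, starting 167 and 68 bases before the gene's start, and no GGCGCC. The Id2 window held GGCGCC at 1 place, starting 231 bases before the gene's start, and no GTCTG on either strand. Counting both strands, GTCTG occurs in 42.2% and GGCGCC in 9.59% of all promoter entries of this length. These matches describe letters and not bound sites. Of the 10 genes, 6 had a promoter entry, and Id1 had none. GGCGCC also occurred in the windows of Bmpr1a, Bmpr2 and Id4, and not in those of Bmp4 and Smad6. A link between these matches and the ratios was not tested.

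Among the ligands, none had a measured difference between the lines. Bmp2 read 2.75 log2 on the lung-recovered and 2.60 on the parental array, and Bmp4, the ligand of the intestinal stroma, read 4.39 and 4.60, all at the floor. Bmp7 was above the floor by 1 of its 3 probe sets (1435479_at), at 5.96 in lung-recovered and 6.03 in parental cells, a ratio of -0.07 that changed sign to 0.03 when the arrays were scaled to equal medians. Its other probe sets (1418910_at and 1432410_a_at) read 4.20 and 3.92 on the lung-recovered array and 4.04 and 3.76 on the parental array, all at the floor. In the wider list of 14 BMP and GDF ligand genes, 11 had probe sets and 7 of them were not measured. Of the list 0 passed 2-fold, beside 4.42% higher and 2.55% lower of all measured genes. Bmp10 (6.35 in lung-recovered and 6.42 in parental cells) and Gdf2 (6.58 and 6.57), both known as ligands of the endothelial receptor Alk1, had ratios of -0.07 and 0.01. Neither ratio kept its sign under every scaling. Bmp8a was above the floor on the lung-recovered array by 0.07 and at the floor on the parental array, so no ratio is given for it.

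By their brightest probe sets the measured receptors and co-receptors other than Bmpr1b lay within 2-fold, though the probe sets of Bmpr1a disagreed. Bmpr2, the type II receptor of BMPs, read 10.15 log2 in lung-recovered and 9.99 in parental cells by its brightest probe set (1434310_at), a ratio of 0.16. Its other probe sets gave 6.62 and 6.39 (1419616_at) and 5.14 and 5.24 (1441652_at) in the same order, and the SD of the 3 ratios was 0.17. The mean ratio of the Bmpr2 probe sets, 0.10, was smaller than that SD.

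Bmpr1a, the type I receptor that gut epithelium uses for BMP signals, had probe sets that disagreed. The brightest (1425492_at) read 8.87 log2 in lung-recovered and 8.60 in parental cells, a ratio of 0.27. By contrast 1425491_at read 7.84 and 8.33, 1425493_at read 7.66 and 8.16, and 1425494_s_at read 7.46 and 8.0 on the lung-recovered and the parental array. Those 3 probe sets had ratios from -0.54 to -0.49. A dimmer probe set (1445413_at) read 4.68, barely above the floor, in lung-recovered and 6.18 in parental cells, 2.83-fold lower, and 1451729_at was at the floor at 4.57 and 4.65. Of the 5 measured ratios 4 were below 0 and 1 above, with a median of -0.50 and an SD of 0.63, so the direction of Bmpr1a depends on the probe set read. The annotation gives 5 of the 6 probe sets, all but 1445413_at, the same source sequence.

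Bmpr1b, the other BMP-specific type I receptor, was the one gene of the 12 receptors and co-receptors past 2-fold by the brightest probe set. It read 5.65 log2 in lung-recovered and 8.40 in parental cells by its brightest probe set (1437312_at), 6.73-fold lower. A second probe set (1443720_s_at) read 2.83, at the floor, in lung-recovered and 4.82 in parental cells, at least 1.17-fold lower, and the remaining one (1422872_at) was at the floor on both arrays at 3.54 and 4.29. The Bmpr1b ratio was -2.75 as given. With floors at the 60th percentile the lung-recovered signal was at the floor, and -2.25 is only a bound. The median of its probe sets was -1.49, which takes in the bound of -0.23 from 1443720_s_at. The activin and BMP type I receptor gene Acvr1 read 8.87 and 8.57, and the shared type II receptor gene Acvr2a read 8.39 and 8.17, in lung-recovered and parental cells. Over the 10 measured receptors and co-receptors the median ratio was 0.03. Of them 0 were 2-fold or more higher and 1 lower, beside 4.42% higher and 2.55% lower of all measured genes.

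**Figure D2:**
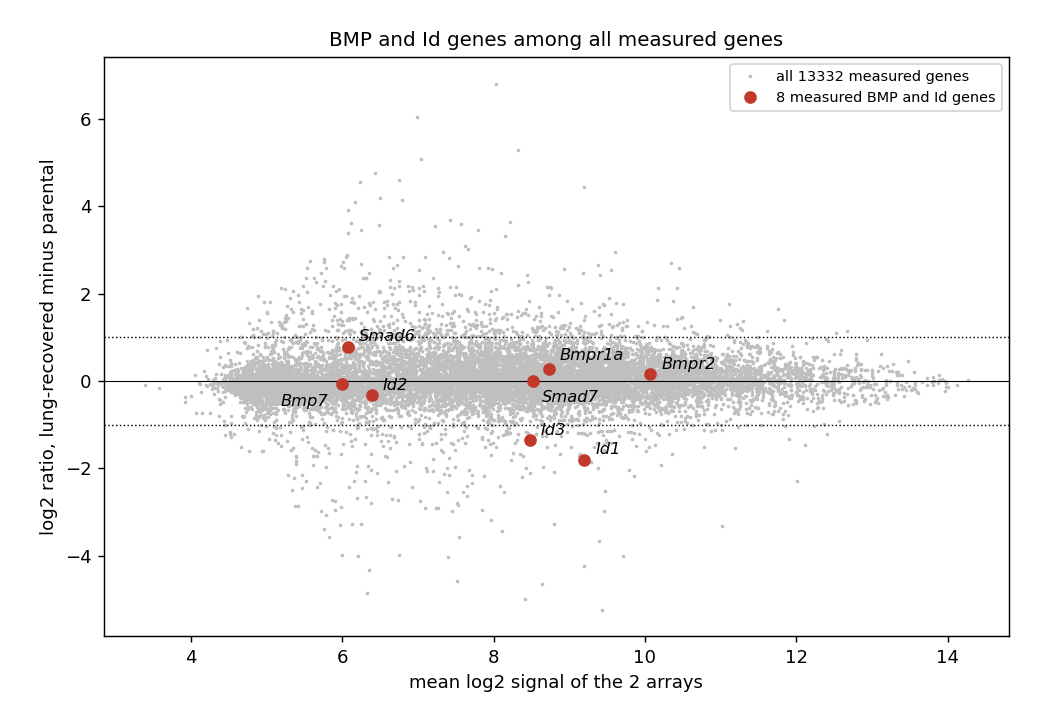
Log2 ratio of lung-recovered minus parental (y axis) against mean log2 signal of the 2 arrays (x axis) for 13332 measured genes (grey) and the 8 measured BMP and Id genes (red), with dotted lines at 2-fold. Id1 at -1.80 and Id3 at -1.36 lie under the lower line, and the other 6 lie between the lines.

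The inhibitory Smads did not move with Id1 and Id3, although all are targets of the same pathway. Smad6, which preferentially blocks BMP receptors, read 6.47 log2 in lung-recovered and 5.68 in parental cells, 1.73-fold higher with a ratio of 0.79, and 6.66% of measured genes had a higher ratio. It has 1 probe set and its parental signal lies within the dim range. Once the floors were raised to the 60th percentile that signal was at the floor, and 0.29 was left as a bound. Smad7, which blocks both BMP and TGF-beta receptors, read 8.52 in lung-recovered and 8.51 in parental cells by its brighter probe set (1423389_at) and 7.47 and 7.09 by the other (1443771_x_at). The ratio of the brighter probe set, 0.01, was -0.09 after quantile normalization. In the whole list of 12 intracellular inhibitors every gene was measured, and the median ratio was 0.16. By the brightest probe sets 0 passed 2-fold, beside 4.42% higher and 2.55% lower of all measured genes. After Smad6, the largest ratio upward was that of the antiproliferative gene Tob2 (9.18 in lung-recovered and 8.72 in parental cells), whose 3 probe sets without the suffix _s, _x or _a had ratios from -0.04 to 0.18. The largest ratios downward were those of Tob1 (10.27 and 10.59), whose product restrains BMP Smads, and of the ubiquitin ligase gene Nedd4l (9.88 and 10.09). A dimmer Nedd4l probe set (1457374_at) read 4.33, at the floor, in lung-recovered and 5.62 in parental cells, at least 2.04-fold lower. Its probe sets 1437400_at and 1441305_at had ratios of -0.26 and -0.04. The brightest gene of the list, Fkbp1a, whose product keeps type I receptors inactive, read 12.11 and 12.23.

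Of the signal-carrying Smads, Smad1 and Smad5 were measured and Smad9 was not. Smad1 read 10.14 log2 in lung-recovered and 9.39 in parental cells by its brightest probe set, 1.68-fold higher, and its other probe sets were 1.80-fold (8.14 and 7.29) and 2.10-fold higher (9.72 and 8.65). Smad5 read 8.01 and 7.86 and the common partner Smad4 read 10.97 and 10.93, while Smad9 was at the floor on both arrays at 4.27 and 4.40. The quantile and lowess scalings turned the Smad4 ratio to -0.01. The cofactor gene Runx1, whose product binds Smads at shared target sites, read 8.67 in lung-recovered and 6.74 in parental cells, 3.81-fold higher. Of its 6 probe sets 5 were higher by 2.33-fold to 6.02-fold, and the remaining one (1452531_at) read 6.14 and 6.46. Of 8 measured signalling Smads and cofactors, 1 was 2-fold or more higher by the brightest probe set and 0 lower. Of all measured genes 4.42% were higher and 2.55% lower by that much. The median ratio of the 8 was 0.19.

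The largest difference upward in the pathway lists was that of an antagonist gene. Fst encodes follistatin, which traps activins and, less tightly, some BMPs. It read 8.78 log2 in lung-recovered and 3.55, at the floor, in parental cells by its brightest probe set, at least 17.0-fold higher. Its other probe set read 7.75 and 4.02, at least 8.34-fold higher, and raising the floors to the 60th percentile left the brightest at 2.60. Nbl1, a secreted BMP binder of the DAN family, read 7.55 in lung-recovered and 6.23 in parental cells, 2.50-fold higher. The follistatin-like gene Fstl3 read 9.36 and 8.31, 2.07-fold higher, and was just short of 2-fold after quantile normalization (0.96) and lowess (0.97). The brightest gene of this list, the membrane BMP binder gene Crim1, read 11.17 and 10.37, 1.74-fold higher, and 9.38 and 8.31 by its other probe set.

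The noggin and gremlin genes were at or near the floor. Nog, which encodes noggin, read 4.26 in lung-recovered and 4.16 in parental cells, and the pseudoreceptor gene Bambi, itself a BMP target, read 4.26 and 4.33, all at the floor. Grem1, the gremlin gene of the stroma around crypts, read 4.76 and 4.48, at most just above the floor. The chordin gene Chrd was measured at 5.65 and 5.68, and its ratio of -0.03 was above 0 under each of the 3 other scalings. Twsg1, whose product modulates BMP binding by chordin, read 9.67 and 9.84 by its brightest probe set and was 1.55-fold and 1.74-fold lower by others. In the list of 20 antagonists, 10 of the 19 on the array were measured, 3 were 2-fold or more higher and 0 lower, beside 4.42% higher and 2.55% lower of all measured genes. Fst and Grem1 were measured only through the lung-recovered array. Of the 8 antagonists above the floor on both arrays, 2 were 2-fold or more higher, beside 508 of 12614 among all genes above both floors, and their median ratio was 0.50.

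**Figure D3:**
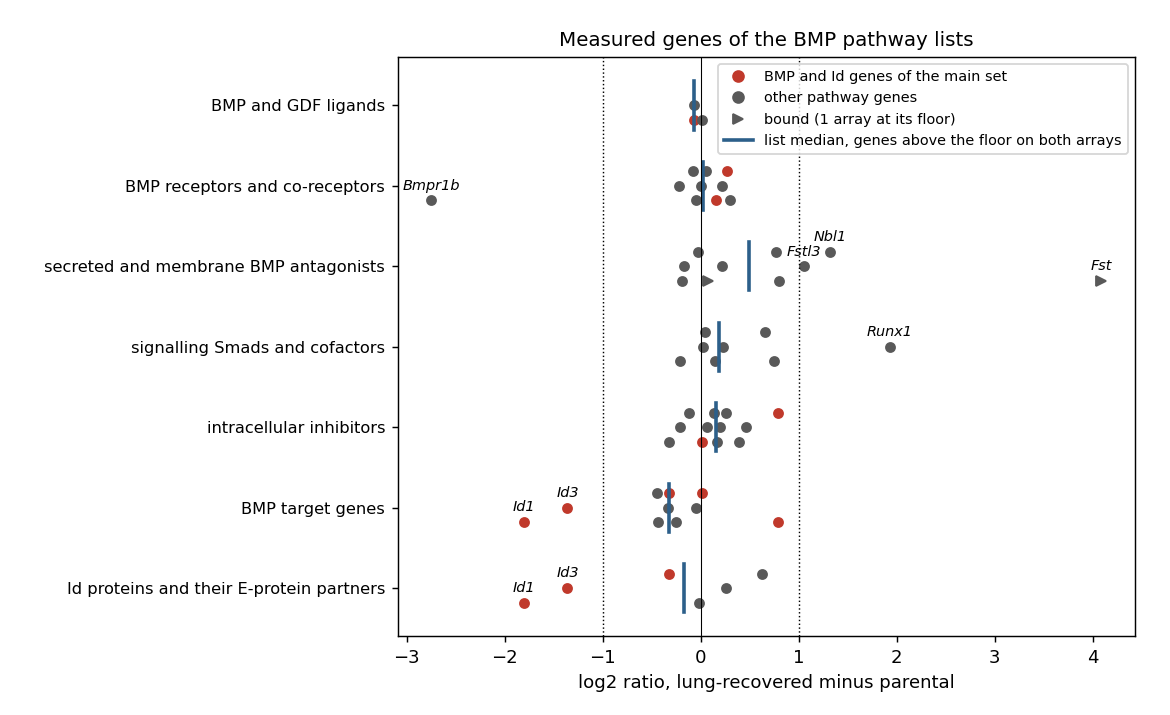
Log2 ratio of lung-recovered minus parental (x axis) for the measured genes of 7 BMP pathway lists (rows), with genes of the main set in red, bounds as triangles, list medians as blue bars and dotted lines at 2-fold. Antagonist genes reach furthest to the right (Fst, a bound of 4.09), Bmpr1b lies furthest to the left at -2.75, and Bmp8a, for which no ratio is given, is not drawn.

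Other BMP targets were dim and, Smad6 and Smad7 apart, lay below 0. Of 18 target genes 10 were measured, 8 had ratios below 0 and 2 above, and the median ratio was -0.33, beside 6499 below and 6565 above 0 among all 13332 measured genes. Those counts are over genes of every signal level, and none were made for genes as dim as most of these. The median signal of all probe sets was 5.26 log2 on the lung-recovered and 5.36 on the parental array. With floors at the 60th percentile, which leave out dimmer genes, the median ratio of all measured genes was 0.06. Beside Id1, Id2 and Id3, the transcription factor genes Atoh8 (5.62 in lung-recovered and 6.07 in parental cells), Hey1 (5.61 and 6.05), Gata2 (4.89 and 5.22) and Msx1 (5.61 and 5.86) had ratios from -0.45 to -0.25, all within 1.5-fold. The hepcidin gene Hamp read 4.98 and 5.03, and its ratio of -0.05 was above 0 under each of the 3 other scalings. Msx2, Dlx2, Dlx5, Gata3 and Id4 were at the floor on both arrays. Of the 10 measured targets, Id1 and Id3 passed 2-fold, both lower, beside 2.55% of all measured genes.

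None of the E-protein genes, whose products Id proteins bind, passed 2-fold by its brightest probe set. Tcf4 read 9.49 log2 in lung-recovered and 8.86 in parental cells, 1.55-fold higher, and its 6 probe sets had ratios from 0 to 1.08. Tcf12 read 10.74 and 10.48 by its brightest probe set, a ratio of 0.26, but its median over probe sets was -0.02. Tcf3 read 8.56 and 8.58, a ratio of -0.02 that was 0.08 when the arrays were scaled to equal medians. These values are levels of RNA and give no measure of protein or of binding.

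**Figure D4:**
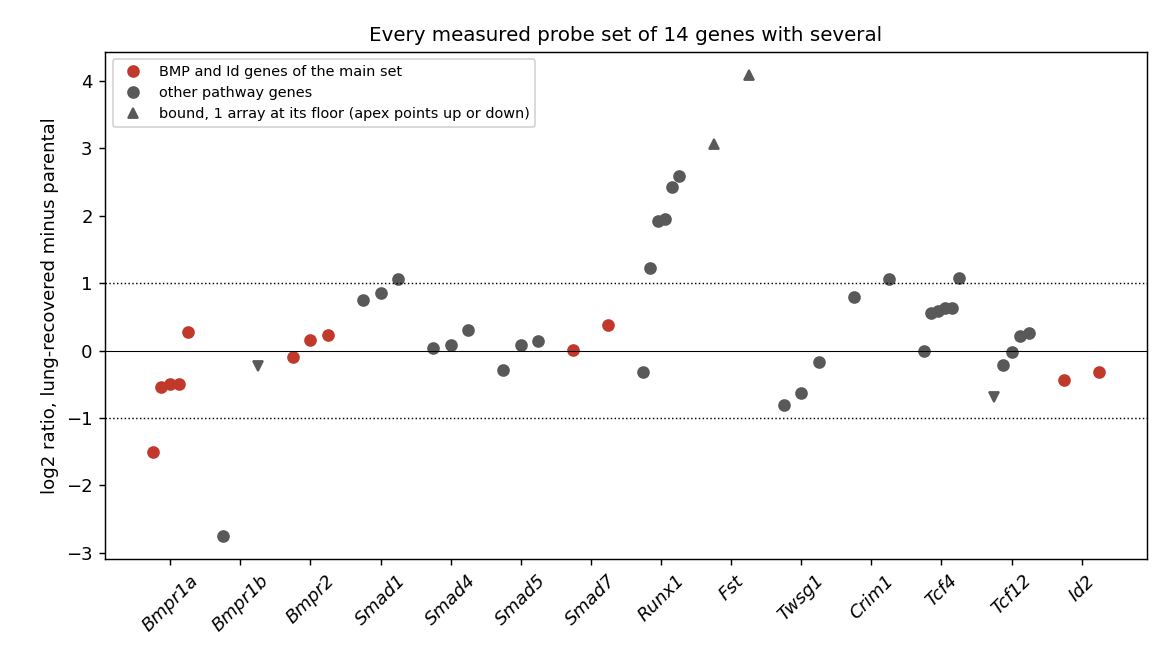
Log2 ratio of lung-recovered minus parental (y axis) of every measured probe set of 14 pathway genes with several probe sets (x axis), with genes of the main set in red, bounds as triangles and dotted lines at 2-fold. The 3 Smad1 probe sets and 5 of the 6 of Runx1 lie above 0, 4 of the 5 of Bmpr1a lie below 0 and 1 above, and both measured Id2 probe sets lie below 0.

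Over all 7 pathway lists together, 80 of 85 genes were on the array and 55 were measured. Of these, 4 (7.27%) were 2-fold or more higher and 3 (5.45%) were 2-fold or more lower, beside 4.42% and 2.55% of all measured genes. Fst, 1 of the 4, Grem1 and Bmp8a were measured only through the lung-recovered array. Of the 52 genes above both floors, 3 were 2-fold or more higher and 3 lower, beside 508 and 286 of 12614 among all genes. Their median ratio was 0.03. The median ratio of the 55 genes was 0.04, beside 0 for all genes. Bmp8a entered it at -0.03, its value against the parental floor, although its signal was higher in lung-recovered cells. Some genes, such as Smad6 and Id1, stand in more than 1 list and are counted once here.

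Endothelial cells use BMP signals strongly and express Id1 and Id3, and they are among the cells a lung culture could hold. Of 12 endothelial markers, Pecam1, Vwf, Emcn, Tie1 and Cldn5 were not measured on either array. Cdh5 read 9.30 log2 in lung-recovered and 4.21, at the floor, in parental cells by its brightest probe set, at least 24.4-fold higher. By its other probe set it read 5.52 and 3.98, again at the floor in parental cells, at least 1.78-fold higher. Sox17 read 5.23 and 9.80, 23.8-fold lower, and Tek read 3.43, at the floor, and 8.57, at least 15.8-fold lower. Esam, Kdr, Flt1 and Egfl7 were above the floor on both arrays by their brightest probe sets, with ratios from -0.23 to -0.04. The other probe sets of Flt1 were at the floor on both arrays. The summed signal of the list on the linear scale was 1415 in lung-recovered and 2111 in parental cells. The summed signals were 366 and 431 for 12 fibroblast and mural markers, 1210 and 2368 for 12 leukocyte markers, and 1376 and 2239 for 11 lung epithelial markers, in the same order. Single genes made up much of 2 of these sums. Cd14 gave 564 and 1585 of the leukocyte sums, and Aqp5 gave 1031 and 1641 of the lung epithelial sums. On both arrays 6 of the fibroblast and mural markers and 8 of the leukocyte markers were above the floor, as were 7 of the lung epithelial markers on the lung-recovered and 8 on the parental array. In these 3 lists the genes past 2-fold by their brightest probe sets were Cd68 and Csf1r, higher in lung-recovered cells, and Plek, Cd74, Cd14 and Napsa, lower. The other Csf1r probe sets had ratios of 0.78 and 0.02, and those of Plek -0.84 and a bound of -1.52. The brightest genes were Des, Cd14 and Aqp5. Ptprc, Col1a1, Col3a1 and Scgb1a1 were at the floor in both lines. Above it by their brightest probe sets were Col1a2 (5.34 in lung-recovered and 5.65 in parental cells), Dcn (5.30 on both) and Acta2 (5.64 and 5.83). The other probe sets of Col1a2, Dcn and Acta2 were at the floor on both arrays. Lyz2 (5.53 on both) and Sftpb (6.32 and 6.70) were also above it. The part of other cell types in the differences of Id1 and Id3 was not tested. Of 11 colorectal epithelial markers, the keratin and adhesion genes Krt8, Krt18, Krt19, Epcam and Cdh1 read above 10 log2 on both arrays, while the intestinal markers Vil1, Cdx1, Krt20 and Lgals4 were at the floor on both. Cdx2 read 5.08 in lung-recovered and 5.24 in parental cells, and Cdh17 was 2-fold higher in lung-recovered cells (6.77 and 5.77).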

How the data were processed

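Total RNA of each culture, 6 µg, was labelled as biotinylated cRNA for an Affymetrix array, per the labels' protocols. The deposited values are log2 probe set signals with 2 decimals. The base was taken from the values, since with base 2 the highest signals are 19893 (lung-recovered) and 19484 (parental) on a linear scale. MAS5 is named in the submitters' processing notes, without its role, and no source used here states the authors' scaling between arrays. The 2% trimmed linear means, 243 and 233, differed by 4.13%, inside a limit of 5%, so values were used as deposited. Probe sets with 1 symbol (34945 of 35877 listed) were named through the platform annotation, with symbols updated by Entrez identifier to GRCm38.p6. Genes at the floor on 1 array have a bound, given as "at least", unless the floors leave no difference in the direction of the signal. The 10 genes and all lists were chosen with earlier results of these data known. The naming rule took all 10 genes, the genes of each list past 2-fold (otherwise its largest ratios) and its brightest gene. Acvr1, Acvr2a, Smad1, Smad5, Smad9, Nog, Bambi, Grem1, Twsg1, Bmp8a, Chrd, Tcf3, Tcf4, the further BMP targets, the marker genes within 2-fold and the genes at the floor were named after their values were seen. The pipeline was tested on simulated data. Software was Python 3.11.15, pandas 2.3.3 and statsmodels 0.14.6 for the lowess. Alternatives were other scalings (equal medians, quantile, lowess spanning 0.3 of the probe sets), a 20th or 60th percentile floor or none, other probe set choices, and calls at 1.5-fold and 4-fold.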

Additional observations from a re-analysis of the deposited data

How the results depend on the processing

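Id1 ranged from -1.89 to -1.70 and Id3 from -1.45 to -1.26 over the 3 other scalings, so both stayed past 2-fold and below 0. Each has 1 probe set, with signal above every floor used. Other floors and the median over probe sets therefore could not change either value. When probe sets whose suffix is _s, _x or _a were left out, Id1 had none, and the count of the 10 genes that were 2-fold or more lower was 1. With the median over probe sets, the median ratio of the 8 measured genes was -0.23, with Bmpr1a at -0.50 in place of 0.27. At 1.5-fold, 1 of the 10 genes was higher (Smad6) and 2 lower, and 10 genes of the pathway lists were higher and 3 lower, beside 11.5% higher and 6.95% lower of all measured genes. At 4-fold, 0 of the 10 genes were higher or lower, and 1 pathway gene was higher and 1 lower, beside 0.788% higher and 0.638% lower of all measured genes. Of 61 values of single BMP and Id genes under alternatives, 58 stayed within 0.17 log2 of the reported value. Among the 61, 4 had the other sign (Bmp7, Bmpr1a and, under quantile and lowess scaling, Smad7). The 61 include values that an alternative could not change, such as those of Id1 and Id3 under other floors. Scaling to equal medians moved the median of all measured genes to 0.10. No paired analysis was possible because each group has 1 array. The single array per group limits the precision of every difference, and the floors that of dim genes.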
